A study of Mus musculus with 9 samples.

Results

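The genes described here copy DNA in dividing cells. They were Mcm2, Mcm3, Mcm4, Mcm5, Mcm6 and Mcm7, the subunits of the MCM helicase, Pcna, the sliding clamp of the DNA polymerases, and Rrm1, Rrm2 and Tyms, enzymes that supply deoxynucleotides. The 10 genes, among 30869 gene symbols on the array, were chosen by name, with earlier results of these same arrays known, so their values are a description and the calls below lend no independent support to any pattern. The array carried 24 probes for them among 45281 gene probes, and 17 of the 24 passed the detection filter. All 10 genes kept at least 1 probe, and every value below comes from 9 arrays.

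Before a cell copies its DNA, the MCM proteins are loaded as a ring of 6 subunits on replication origins in G1, and the ring is switched on as the helicase that unwinds DNA in S phase. PCNA is then loaded as a ring around the new strand, holds the polymerases on their template and recruits enzymes that join and repair DNA. Ribonucleotide reductase, made of the products of Rrm1 and Rrm2, turns ribonucleotides into deoxyribonucleotides, and thymidylate synthase, made by Tyms, produces the thymidine form. Transcription of these genes is known to rise at the G1/S boundary under E2F factors. Quiescent hepatic stellate cells seldom divide, whereas activation after liver injury or by growth on plastic makes them myofibroblast-like and is known to bring them into the cell cycle.

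Hepatic stellate cells are the vitamin A storing pericytes of the liver, and the cells were termed activated hepatic stellate cells (aHSCs) by the study. The labels give every sample as male, WT1GFP/+ and of the C57/Bl6 strain, although the methods mention mice of both sexes for in vitro work. In WT1GFP/+ mice 1 allele of the Wilms tumour gene WT1 carries green fluorescent protein (GFP). WT1-high and WT1-intermediate cells (GFP high and GFP low in the labels) were sorted from the buoyant cell fraction of adult livers chronically injured with carbon tetrachloride, and WT1-negative cells were sorted as GFP-negative from stellate cells of uninjured livers that had been grown on plastic for 7 days. GFP reports activity of the WT1 locus and marks no lineage by itself. Each group had 3 arrays, numbered 1, 8 and 29 for WT1-high, 1, 8 and 30 for WT1-intermediate and 3, 11 and 14 for WT1-negative cells, and values are given in that order. The 6 in vivo arrays came from 3 animals per the study, and p-values measure the spread between these arrays. No WT1-negative cells from liver and no WT1-positive cells from culture were analysed here, so WT1 status and growth in culture cannot be told apart. In vivo and culture arrays were also deposited in separate tables, and biotin control signals averaged 4399 to 4876 on the former and 2872 to 3134 on the latter, a difference that cannot be told apart from origin either.

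Levels are log2 intensities after background correction and quantile normalisation, so a difference of 1 is a 2-fold change on that scale. The lowest level that counted as detected lay between 4.48 and 4.65 on the 9 arrays, and levels near it have no order. Each array detected 17253 to 19774 probes. By the array's annotation Mcm3 and Mcm6 lie on chromosome 1, Pcna on 2, Mcm7 and Tyms on 5, Mcm2 on 6, Rrm1 on 7, Mcm5 on 8, Rrm2 on 12 and Mcm4 on 16. Each gene is given by its brightest kept probe, all its other probes are described beside it, and levels of different probes are not set against each other. Adjusted p-values are limma's, by the Benjamini-Hochberg method over 20573 kept probes, and a gene or probe is said to be called where that value is under 0.05. These are bulk samples, so fewer dividing cells and less transcript per cell cannot be told apart.

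Markers of other cells moved with the groups. On the linear scale, the summed level of 15 macrophage markers was 8072 to 13106 on WT1-high, 22874 to 37834 on WT1-intermediate and 68231 to 73065 on WT1-negative arrays. That of 10 mesothelial markers was 34953 to 38797, 19995 to 27533 and 235 to 326 in the same order, and 8 skeletal muscle genes summed to 207 to 491, 175 to 225 and 6889 to 10546. The 10 stellate cell markers that passed the filter of 12 listed summed to 12421 to 16785, 8408 to 14455 and 14788 to 17156, while Lrat and Rgs5 did not pass it. Des is counted in both the muscle and the stellate cell sums, with mean log2 levels of 8.12, 6.73 and 8.07 in that order. Of the 8 muscle genes 3 were detected on WT1-high arrays and 3 to 4 on WT1-intermediate arrays. The macrophage marker Itgam was detected on no WT1-high array, and the mesothelial markers Gpm6a, Dmkn, Krt19 and Lrrn4 on no WT1-negative array. Sums in that order were 471 to 2939, 604 to 2197 and 47.1 to 223 for 7 hepatocyte genes, 818 to 1243, 673 to 1295 and 580 to 730 for 8 genes of T and NK cells, 989 to 1388, 1832 to 2177 and 1200 to 1658 for 10 endothelial genes, and 68.9 to 96.7, 84.4 to 114 and 38.0 to 49.8 for 4 B cell genes. Single members did not all move with these sums. Against WT1-negative cells, 7 of the 8 T and NK cell genes were called higher and 1 lower in WT1-high cells. In WT1-intermediate cells 6 were higher and 1 lower. All 8 were detected on every WT1-high array and 2 to 4 of them on WT1-negative arrays. Of the 10 endothelial genes, 5 were called lower and 2 higher in WT1-high cells, and 5 lower and 3 higher in WT1-intermediate cells. Of the 10 stellate cell markers, 5 were called lower and 2 higher in WT1-high cells, and 4 lower and 1 higher in WT1-intermediate cells. Of the 15 macrophage markers, 12 were called lower and 1 (Ctss) higher in WT1-high cells. In WT1-intermediate cells 8 macrophage markers were lower and 2 (Lyz1 and Ctss) higher. The shares of calls over all genes are given below. The part of these other cells in the values below was not tested.

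Against cultured WT1-negative cells, 9 of the 10 genes differed in WT1-high aHSCs and 9 differed in WT1-intermediate aHSCs. In both comparisons 8 were lower (Mcm2, Mcm3, Mcm4, Mcm5, Mcm7, Rrm1, Rrm2 and Tyms), Pcna was higher, and Mcm6 by its brightest probe was not called. Over all 14659 genes given by their brightest kept probe, 32.1% were called lower and 27.6% higher in WT1-high cells, and 32.0% were called lower and 25.9% higher in WT1-intermediate cells. Over the 10 genes the median difference was -1.66 for WT1-high cells, beside -0.07 over all genes, and -2.09 for WT1-intermediate cells, beside -0.10. Groups did not overlap for 9 of the 10 genes in both comparisons, against 68.7% of all genes for WT1-high and 65.7% for WT1-intermediate. Adjusted p-values of the 8 lower genes lay between 7.42e-08 and 2.42e-05 for WT1-high cells and between 1.38e-07 and 5.06e-05 for WT1-intermediate cells. The size of these differences depends on the background correction: without it the calls remained, but WT1-high Mcm5 was at -2.43 in place of -3.15, Mcm3 at -1.20 in place of -2.81, Rrm2 at -1.18 in place of -2.83 and Mcm2 at -1.31 in place of -2.30. Both comparisons share the WT1-negative arrays, so they are not separate evidence. Between WT1-high and WT1-intermediate cells 1 of the 10 genes was called (Mcm5), against 3.83% of all genes, and 2 did not overlap (Mcm5 and Tyms), against 20.5%. The 3.83% is 562 genes, and that count was 1156 to 1381 with a replicate block and 252 to 662 with an array left out, the lowest without WT1-intermediate replicate 1.

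**Figure D1:**
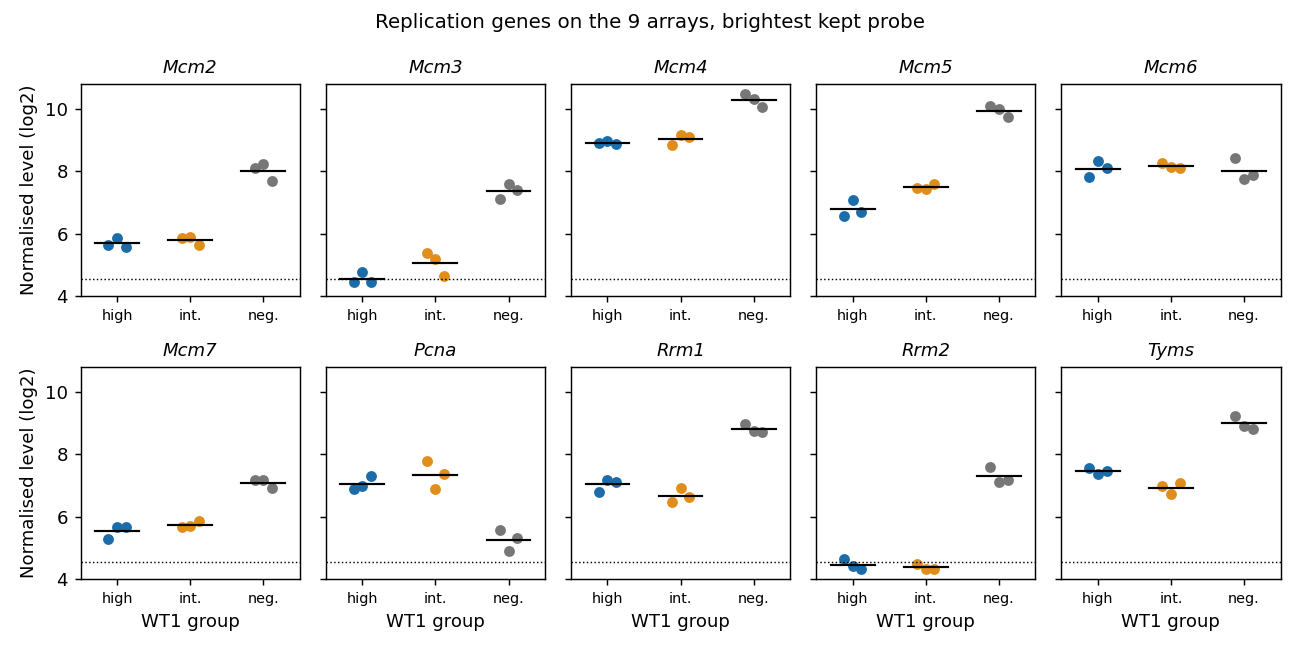
Normalised log2 level of the brightest kept probe of each gene on each array (points) in the WT1-high, WT1-intermediate (int.) and WT1-negative (neg.) groups, with the group mean as a bar and the mean of the 9 arrays' lowest detected levels as a dotted line. WT1-negative arrays sit above all 6 WT1-positive arrays for 8 genes and below them for Pcna, and all groups overlap for Mcm6.

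Mcm2 to Mcm7 form 1 complex, and their probes were first compared as such. Mcm5 had the largest difference of the helicase genes in WT1-high cells. Its levels were 6.58, 7.09 and 6.70 on the WT1-high arrays, 7.48, 7.45 and 7.59 on the WT1-intermediate arrays and 10.10, 9.998 and 9.73 on the WT1-negative arrays. The groups thus followed each other without overlap, from WT1-high through WT1-intermediate to WT1-negative. Mcm5 was lower than in WT1-negative cells by 8.87-fold in WT1-high cells (log2 difference -3.15 ± 0.17, SE; adjusted p = 7.42e-08) and by 5.40-fold in WT1-intermediate cells (-2.43 ± 0.17; adjusted p = 6.8e-07).

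Mcm3 was near the detection limit in WT1-high cells. It read 4.45, 4.79 and 4.45 there, with detection on 1 of the 3 arrays, 5.39, 5.18 and 4.64 in WT1-intermediate cells and 7.11, 7.61 and 7.40 in WT1-negative cells. The WT1-negative arrays were the highest without overlap, and the WT1-positive groups overlapped. WT1-high cells differed from WT1-negative cells by -2.81 ± 0.21 and WT1-intermediate cells by -2.30 ± 0.21.

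Mcm2 lay at similar levels in both WT1-positive groups. It read 5.65, 5.87 and 5.59 in WT1-high cells, 5.88, 5.90 and 5.63 in WT1-intermediate cells and 8.11, 8.22 and 7.69 in WT1-negative cells. All 6 in vivo arrays were below every culture array, and the differences were -2.30 ± 0.17 for WT1-high cells and -2.20 ± 0.17 for WT1-intermediate cells. By their brightest probes, Mcm4 and Mcm7 had smaller differences. Mcm4 read 8.83 to 9.14 on the in vivo arrays and 10.05 to 10.48 on the culture arrays, and WT1-high cells differed by -1.36 ± 0.16 and WT1-intermediate cells by -1.26 ± 0.16. A further pair of Mcm4 probes, which share 49 of their 50 bases, was not kept and was detected on 2 and 1 of the 3 WT1-negative arrays and on no other.

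Mcm7 had 2 kept probes. The brighter read 5.29 to 5.88 on the in vivo arrays and 6.91 to 7.19 on the culture arrays, and its differences were -1.55 ± 0.16 and -1.34 ± 0.16. The second was detected on all 3 WT1-negative arrays, at 6.31, 7.14 and 6.57, and on no WT1-positive array, so that only a bound is measured there. It was at least 4.37-fold lower in WT1-high and at least 4.33-fold lower in WT1-intermediate cells. The probe passed the filter through the WT1-negative arrays alone, so its direction was fixed beforehand.

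Mcm6 was the subunit whose probes disagreed. The array had 4 probes for it, assigned to the same transcript record, and the first 30 of the 50 bases of each are shown here because 1 of them carries a different result, with G and C in capitals.
Mcm6 probe ILMN_1217331: tCttCatGtataGGaaaaGCCtGCtGCatt
Mcm6 probe ILMN_2803399: GGttGttCatCGtCtCaCaCaCtaCGatCa
Mcm6 probe ILMN_1233857: GCCCCtGtGaataGGttCaaCGGCtCCaGt
Mcm6 probe ILMN_1236125: CCGaaaGGaGatCCCttttGCtaaGGattt

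The brightest, ILMN_1217331, read 7.83, 8.33 and 8.09 in WT1-high, 8.28, 8.14 and 8.12 in WT1-intermediate and 8.42, 7.75 and 7.88 in WT1-negative cells. All groups overlapped, and the differences from WT1-negative cells were 0.07 ± 0.20 (adjusted p = 0.778) and 0.16 ± 0.20 (adjusted p = 0.490). ILMN_2803399 read 7.53, 8.01 and 7.24, then 7.03, 7.40 and 7.22, then 8.92, 8.50 and 8.43 in the same order of groups, and was called lower in both WT1-positive groups (-1.02 ± 0.21 and -1.40 ± 0.21). ILMN_1233857 read 6.88, 7.04 and 6.58, then 6.57, 6.76 and 6.56, then 8.74, 8.96 and 8.47, and was called lower by more (-1.89 ± 0.18 and -2.09 ± 0.18). ILMN_1236125 was detected on 1 of the 9 arrays and was not kept. With the mean of the kept probes in place of the brightest, Mcm6 was called lower in both groups, with a difference of -0.95 for the WT1-high and of -1.11 for the WT1-intermediate group. The missing call for Mcm6 therefore rests on 1 of its 3 kept probes, and why that probe reads differently was not tested.

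**Figure D2:**
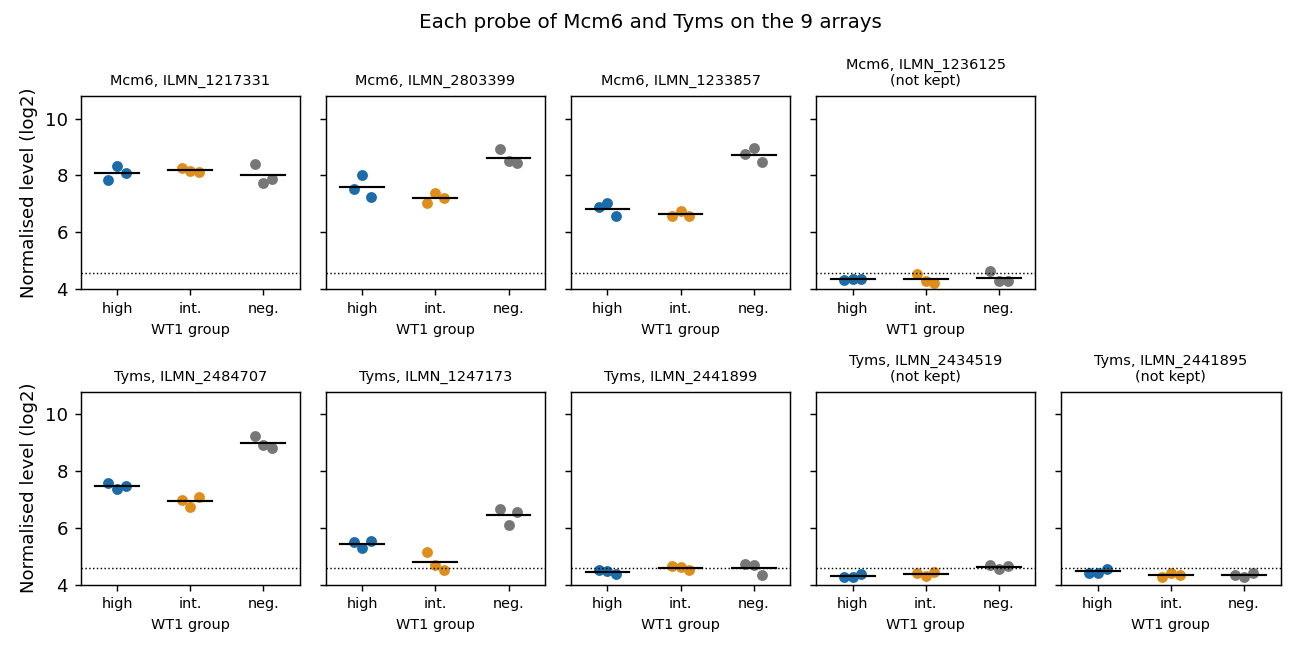
Normalised log2 level of every probe of Mcm6 (top) and Tyms (bottom) on each array, with group means as bars and the mean lowest detected level as a dotted line; "not kept" marks probes that failed the detection filter. ILMN_1217331 is level across groups whereas ILMN_2803399 and ILMN_1233857 are highest in WT1-negative cells, and the lower 3 Tyms probes lie near the detection limit.

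Pcna moved against the other genes. It had only 1 probe on the array, whose first 30 bases are shown because the result rests on it, with G and C in capitals.
Pcna probe ILMN_2762026: tCtGtaaataaCCtaCtttCttttCtCtCC

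Over its 50 bases 30% were G or C, the lowest share of the 24 probes, which otherwise lay between 38% and 58%. Pcna read 6.90, 6.98 and 7.29 in WT1-high, 7.79, 6.88 and 7.38 in WT1-intermediate and 5.57, 4.91 and 5.33 in WT1-negative cells, and was detected on all 9 arrays. Every WT1-positive array was above every WT1-negative array. Compared with WT1-negative cells, the clamp transcript was raised 3.46-fold in the WT1-high group (1.79 ± 0.24; adjusted p = 7.54e-05) and 4.23-fold in the WT1-intermediate group (2.08 ± 0.24; adjusted p = 2.84e-05). WT1-intermediate replicate 1 was the highest of the 9 arrays, and the WT1-positive groups overlapped (-0.29 ± 0.24; adjusted p = 0.588). Whether the probe reads the Pcna transcript alone was not tested.

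**Figure D3:**
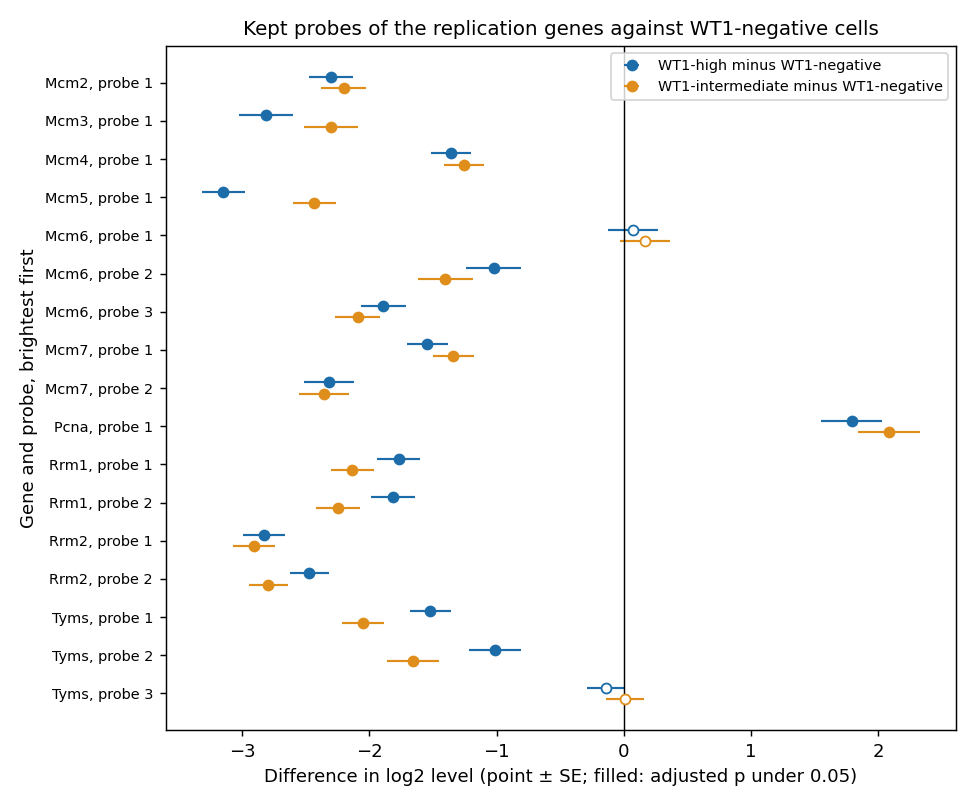
Difference in log2 level from WT1-negative cells for each of the 17 kept probes, as point ± SE from the fit, for WT1-high (blue) and WT1-intermediate cells (orange); filled points have an adjusted p under 0.05. In each comparison 14 probes lie to the left of 0 and are called, Pcna lies to the right, and Mcm6 probe 1 and Tyms probe 3 lie near 0. The second Mcm7 probe, detected on WT1-negative arrays alone, measures only a bound, and the detection filter fixed its side.

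Of the enzymes of nucleotide supply, Rrm2, the small subunit of ribonucleotide reductase and the one that is known to limit its activity in the cell cycle, was close to background in the WT1-positive cells. Its kept probes overlap, and are shown with the 35 bases they share in capitals because they are no separate measurements of the transcript.
Rrm2 probe ILMN_2714565: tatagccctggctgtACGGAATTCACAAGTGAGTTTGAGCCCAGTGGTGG
Rrm2 probe ILMN_2819319: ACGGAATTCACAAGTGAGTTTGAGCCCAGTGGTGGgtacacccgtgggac

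By the first probe, Rrm2 read 4.64, 4.43 and 4.34 in WT1-high cells, 4.50, 4.34 and 4.33 in WT1-intermediate cells and 7.59, 7.13 and 7.17 in WT1-negative cells. It was detected on 1 array of each WT1-positive group and on all WT1-negative arrays, and the differences were -2.83 ± 0.17 and -2.91 ± 0.17. By the second probe it was detected on no WT1-intermediate array, where it was at least 5.72-fold lower than in WT1-negative cells, and the difference for WT1-high cells was -2.47 ± 0.15. A further Rrm2 probe was not kept and was detected on 2 of the 3 WT1-negative arrays and on no other. Rrm1, the large subunit, stayed measurable in all groups. Its brightest probe read 6.79, 7.19 and 7.12 in WT1-high, 6.47, 6.91 and 6.62 in WT1-intermediate and 8.96, 8.74 and 8.72 in WT1-negative cells, and the differences were -1.77 ± 0.17 and -2.14 ± 0.17. A second kept Rrm1 probe gave -1.82 ± 0.17 and -2.25 ± 0.17, and the remaining probe was detected on no array.

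Tyms read 7.57, 7.37 and 7.47 in WT1-high, 6.98, 6.73 and 7.09 in WT1-intermediate and 9.23, 8.91 and 8.82 in WT1-negative cells. The 3 groups did not overlap, with WT1-intermediate the lowest, and the differences from WT1-negative cells were -1.52 ± 0.16 and -2.05 ± 0.16. A second probe, ILMN_1247173, had the same order of group means and gave -1.01 ± 0.20 and -1.66 ± 0.20. The remaining Tyms probes lay near the detection limit, and the kept one of these, ILMN_2441899, differed by -0.14 ± 0.15 and 0.01 ± 0.15. The Tyms pseudogene Tyms-ps has a probe of its own, which averaged 6.95, 6.50 and 8.59 in the 3 groups and moved like Tyms (-1.65 and -2.10), and the arrays cannot tell whether the transcripts share signal.

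WT1-high and WT1-intermediate cells both came from injured livers and share their origin, unlike the groups compared above. Their cell markers still differed. In WT1-high cells 13 of 15 macrophage markers and 3 of 10 endothelial genes were called lower and 0 higher, beside 3.83% of all genes called. Of 10 mesothelial markers 1 was higher and 0 lower, and of 10 stellate cell markers 2 were lower and 2 higher. The part of these cells in the values below was not tested. Mcm5 was 1.64-fold lower in WT1-high cells (-0.71 ± 0.17, adjusted p = 0.0447) and was lower in all pairs of arrays, with differences of -0.90 for the pair numbered 1, -0.35 for the pair numbered 8 and -0.90 for WT1-high 29 with WT1-intermediate 30. The call is narrow. It was lost on leaving out any 1 of the 9 arrays except WT1-high replicate 8, with adjusted p-values between 0.0347 and 0.127. A fixed replicate block gave -0.62 without a call (adjusted p = 0.0748). In that block 29 and 30 share no number, so the difference rests on the pairs numbered 1 and 8 alone. A random replicate block (-0.69, adjusted p = 0.0165) and a block of 3 pairs with 29 beside 30 (-0.71, adjusted p = 0.0337) kept the call. Under median scaling the difference was -0.06 where the median of all genes was 0.48. Of the other Mcm genes, Mcm3 differed by -0.51 ± 0.21 (adjusted p = 0.242), Mcm7 by -0.21 ± 0.16 and Mcm2, Mcm4 and Mcm6 by -0.10 each, and none was called. The other kept probes of Mcm6 went the other way, by 0.38 ± 0.21 and 0.20 ± 0.18, also without a call. Mcm3 stayed below 0 under each alternative run (-0.79 to -0.14), whereas Mcm2, Mcm4, Mcm6 and Mcm7, and Pcna too, lay above 0 under median scaling.

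Tyms went the other way between these groups, without a call. It was 1.44-fold higher in WT1-high cells by its brightest probe (0.53 ± 0.16; adjusted p = 0.109) and 1.56-fold higher by the second (0.64 ± 0.20; adjusted p = 0.119), in neither case with overlap, and by the brightest it was higher in the pairs 1, 8 and 29 with 30 by 0.58, 0.64 and 0.37. The third kept probe, ILMN_2441899, near the detection limit, went the other way without overlap (-0.15 ± 0.15; adjusted p = 0.664). With replicate numbers as a random block, the brightest Tyms probe passed the threshold (0.55; adjusted p = 0.0293). Rrm1 differed by 0.37 ± 0.17 (adjusted p = 0.299), and its second probe, which did not overlap between the groups, by 0.43 ± 0.17 (adjusted p = 0.232). A p that missed the threshold does not show that these levels were equal.

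The other genes of replication were described by lists. Of 81 such genes in 6 lists, 68 had a kept probe. A probe detected on the WT1-negative arrays alone passed the filter through them, so its lower level in WT1-positive cells was fixed beforehand. This holds for Wdhd1 and Asf1b here, and for Ccne2 and Kif11 in the G1/S and mitosis lists below. In WT1-high cells 50 were called lower and 6 higher than in WT1-negative cells, with a median difference of -1.05, and in WT1-intermediate cells 49 were lower and 4 higher, with a median of -1.10. Between WT1-high and WT1-intermediate cells none of the 68 was called by limma, with 7 at an unadjusted p under 0.05, and the median was 0.03. This rests on the scaling, since median scaling, under which the median of all genes was 0.48, called 1 origin licensing, 1 helicase activation and 4 nucleotide supply genes higher, with list medians of 0.15 to 0.70, and cyclic loess called 1 helicase activation gene lower. The background shares of calls over all genes are those given above.

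Origin licensing places the MCM ring on DNA. Of its 9 tested genes 6 were lower in each WT1-positive group and none was higher, though cyclic loess called 1 higher in WT1-high cells. Mcm10, which helps to open the loaded helicase, had the largest fall, with differences of -3.16 and -3.36 for WT1-high and WT1-intermediate cells, followed by the MCM loader Cdt1 in WT1-high cells (-1.38) and the origin recognition subunit Orc5 in WT1-intermediate cells (-1.18). Helicase activation was called lower in 10 of 10 tested genes in both comparisons, with 9 of 10 for WT1-intermediate cells under cyclic loess. The 10 include Wdhd1, whose direction was fixed by the filter. The GINS subunit Gins1 changed by -3.28 and -2.69 and Cdc45, the other partner of the active helicase, by -2.24 and -2.53.

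The polymerases were split. Of 9 tested genes 5 were lower and 1 higher in WT1-high cells, or 4 and 1 under median scaling. In WT1-intermediate cells 4 were lower and 1 higher, where median scaling gave 8 lower and 0 higher. The primase subunit Prim2 (-1.28 and -1.31) and the polymerase alpha subunit Pola2 (-1.08 and -1.37) fell, whereas Pole4, a small subunit of polymerase epsilon, rose (0.90 and 0.85). All 14 tested genes for clamp loading, strand protection and Okazaki fragments were lower in both comparisons. Median scaling gave 12 of 14 for WT1-high cells, and cyclic loess 13 of 14 for WT1-intermediate cells. The 14 included Fen1, the flap nuclease that works on PCNA (-2.53 and -2.21), the ligase Lig1 (-1.70 in WT1-high cells) and the clamp loader subunit Rfc3 (-1.68 in WT1-intermediate cells).

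PCNA clients and chromatin assembly factors were lower in 8 of 9 tested genes in each comparison. Pclaf, a small PCNA-binding protein, had differences of -3.50 and -3.40. The histone chaperone Asf1b was detected on no WT1-positive array and was at least 6.09-fold lower in the WT1-high and at least 6.04-fold lower in the WT1-intermediate group. Its direction was thus fixed by the filter. Most genes of these lists were thus lower in the WT1-positive groups in which the Pcna probe was higher. Nucleotide supply beyond the 3 enzymes above was mixed. Of its 17 tested genes 7 were lower and 5 higher in WT1-high cells, or 7 and 3 under median scaling. In WT1-intermediate cells 7 were lower and 3 higher, or 10 and 1 under median scaling and 6 and 4 with cyclic loess. Thymidine kinase Tk1 (-3.28 and -2.92) and Shmt1, which feeds folate to thymidylate synthesis (-1.84 and -1.75), fell, and Paics, a purine synthesis enzyme, rose (2.12 and 1.95). Ctps, CTP synthase, rose in WT1-high cells (0.83) and Samhd1, which breaks down deoxynucleotides, in WT1-intermediate cells (0.69).

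**Figure D4:**
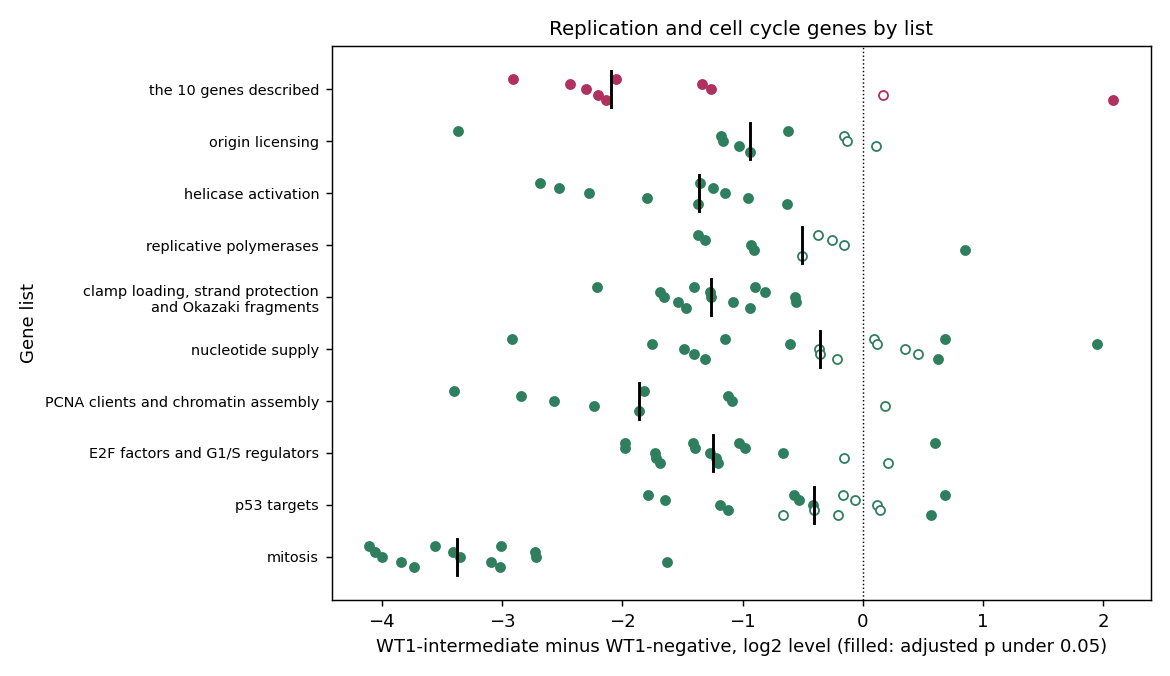
Difference in log2 level between WT1-intermediate and WT1-negative cells for the 10 genes described (red) and for the tested genes of each list (green), each by its brightest kept probe, with the list's median as a bar; filled points have an adjusted p under 0.05. Clamp loading, helicase activation and mitosis genes all lie below 0, whereas the 10 genes described and every other list lie on both sides. For Wdhd1, Asf1b, Ccne2 and Kif11, detected on WT1-negative arrays alone, the detection filter fixed the side.

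Regulators of the G1/S step were mostly lower in WT1-positive cells, in 12 of 16 tested genes for WT1-high and 13 of 16 for WT1-intermediate, with 2 and 1 higher, or 2 and 0 under median scaling. The lower genes include Ccne2, whose direction was fixed by the filter. The activator E2f1 changed by -1.90 in WT1-high cells, the E2F partner Tfdp1 by -1.98 in WT1-intermediate cells, and Mybl2 by -1.86 in WT1-high cells. Mybl2 was detected on no WT1-intermediate array, where it was at least 3.37-fold lower. E2f5, known as a repressor, was higher in both (0.86 and 0.60). Tfdp2 was, with quantile normalisation, the 1 gene of these lists called between the WT1-positive groups, with a difference of 1.03 ± 0.15 in favour of WT1-high cells (adjusted p = 0.00477), whereas median scaling called 2 genes of the G1/S list, 2 of mitosis and 3 p53 targets higher, beside the replication genes given above. Tfdp2 was also higher there than in WT1-negative cells (0.87). Pcna is also known as a p53 target, and 16 other p53 targets are given here. Over all genes 32.1% were called lower and 27.6% higher in WT1-high cells, and 32.0% and 25.9% in WT1-intermediate cells. The counts of p53 targets are to be read against these shares, and a part of p53 in the Pcna values was not tested. In WT1-high cells 6 of the 16 were lower and 4 higher (6 and 2 under median scaling), among them Sesn1 (-2.17), Bax (-2.08) and Ddb2 (0.78). In WT1-intermediate cells 7 were lower and 2 higher (10 and 0 under median scaling), with Sesn1 at -1.78, Sesn2 at -1.65 and Ddb2 at 0.68. Btg2, called higher in both, was detected on no WT1-negative array, so it was at least 1.27-fold and at least 1.12-fold higher. All 14 tested genes of mitosis were lower in both comparisons, with medians of -2.95 and -3.38. The 14 include Kif11, whose direction was fixed by the filter. Mki67, a marker of cycling cells, averaged 5.15, 4.97 and 7.97 on WT1-high, WT1-intermediate and WT1-negative arrays, and Top2a averaged 4.96, 4.89 and 8.62. Birc5 had the largest fall (-3.97 and -4.10), followed by Top2a in WT1-high cells (-3.65) and the kinase Plk1 in WT1-intermediate cells (-4.05).

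Likeness of pattern was measured as Pearson's r over the 9 arrays, which fall into 3 groups, so r mostly follows the group means and is given with no p. Against the mean of the 6 Mcm genes, which includes them, Mcm2, Mcm3, Mcm4, Mcm5 and Mcm7 reached 0.981 to 0.995, Rrm2 0.97, Rrm1 0.95 and Tyms 0.90, whereas the brightest Mcm6 probe gave -0.13 and Pcna -0.91. The other Mcm6 probes gave 0.88 and 0.96. The genes most like the Mcm mean were Emcn (0.997), Dnajc12 (0.995), Apitd1 (0.994), Hat1 (0.994) and Hist1h2ah (0.993). Those most like Pcna were Map2k1 (0.996), LOC674004 (0.993), LOC546015 (0.993), Zbtb8os (0.992) and Polr2g (0.992).

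Promoters of 9 of the 10 genes, 250 bases before to 50 after the start site, were found in the RefSeq table of build GRCm38.p6, with 2 promoters for Mcm7. Motif letters were searched on both strands over 32841 promoters of 300 bases. The E2F letters TTTNGCGC were in the promoters of Mcm3, Mcm5, Mcm6 and Mcm7, that is 4 of 9 genes, and in 1.38% of all promoters. The looser form TTTNNCGC, which contains the first, was in these and in Tyms, and in 5.17% of all promoters. CCAAT was in 8 of the 9 genes and in 37.4% of all promoters, and the cell cycle homology letters TTTGAA were in Mcm2 alone and in 17.9% of all promoters. Neither E2F form was in the 300 bases of Mcm2, Pcna, Rrm1 or Rrm2. Letters found or not found in this window say nothing of binding.

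Promoters are printed for Mcm5, the helicase gene with the largest difference, for Mcm6, whose probes disagreed and which had the most E2F letters, and for Pcna, which moved the other way. They run 5′ to 3′ along the gene, and capitals mark the looser E2F letters and CCAAT on either strand, which merge where they overlap. Mcm5 lies at chr8:75109259-75109558 on the plus strand, Mcm6 at chr1:128359656-128359955 and Pcna at chr2:132253131-132253430, both on the minus strand.
Mcm5 promoter: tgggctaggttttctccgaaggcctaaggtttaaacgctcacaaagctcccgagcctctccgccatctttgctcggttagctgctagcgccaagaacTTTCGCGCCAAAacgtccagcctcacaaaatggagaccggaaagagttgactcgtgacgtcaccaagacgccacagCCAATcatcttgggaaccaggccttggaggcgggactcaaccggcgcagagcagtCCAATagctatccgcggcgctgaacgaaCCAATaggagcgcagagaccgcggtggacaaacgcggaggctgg
Mcm6 promoter: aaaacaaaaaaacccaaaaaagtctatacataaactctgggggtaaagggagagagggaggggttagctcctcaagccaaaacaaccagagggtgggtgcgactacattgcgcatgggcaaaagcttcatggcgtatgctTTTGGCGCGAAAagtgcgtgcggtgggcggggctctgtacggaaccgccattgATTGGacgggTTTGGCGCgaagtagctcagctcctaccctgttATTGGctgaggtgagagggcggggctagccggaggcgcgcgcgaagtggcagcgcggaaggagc
Pcna promoter: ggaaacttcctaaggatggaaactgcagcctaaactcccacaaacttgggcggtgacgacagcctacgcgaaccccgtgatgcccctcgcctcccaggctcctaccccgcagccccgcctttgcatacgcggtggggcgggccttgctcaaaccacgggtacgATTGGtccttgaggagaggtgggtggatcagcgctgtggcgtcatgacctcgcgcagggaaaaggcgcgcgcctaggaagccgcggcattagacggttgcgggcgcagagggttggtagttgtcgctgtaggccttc

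In Mcm5 a pair of E2F matches, 1 on each strand and overlapping by 4 bases, began at -153 and -149 bases from the start site. Mcm6 had a like pair at -110 and -106 and a further match at -47. The Mcm3 match began 38 bases after the start site and that of 1 Mcm7 promoter 16 bases after it. The Mcm6 promoter held the same letters as those of Mcm3, Mcm5 and 1 Mcm7 promoter. The brightest Mcm6 probe did not move with the probes of Mcm3, Mcm5 and Mcm7, whereas its other kept probes were called lower as theirs were. Mcm2, Rrm1 and Rrm2, with neither E2F form, were called lower too, and Pcna, also with neither, was called higher. A part of these letters in the values was not tested.

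**Figure D5:**
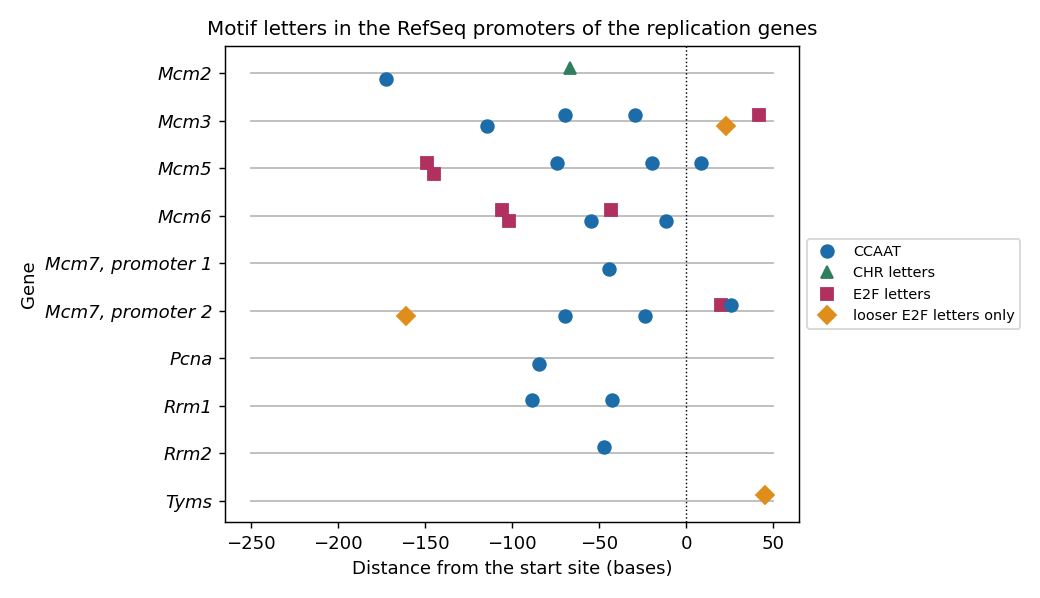
Position of motif letters in the RefSeq promoters of 9 genes, as distance in bases from the start site (dotted line); symbols stand at the middle of a match, those above a gene's line are on its own strand, and those below on the opposite strand. E2F letters are present in Mcm3, Mcm5, Mcm6 and 1 of the Mcm7 promoters, Tyms has the looser form only, and Pcna has a CCAAT on the opposite strand and no E2F letters.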

How the data were processed

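RNA of each sample was hybridised to 1 Illumina MouseWG-6 v2.0 array. The deposited tables hold un-normalised intensities per probe, with detection p-values from the authors' scanner software, and no count or depth exists, so the number of arrays limits the precision. Intensities of the in vivo and in vitro tables were background corrected with 936 negative controls, offset by 16, quantile normalised and put on the log2 scale with neqc of limma 3.58.1 in R 4.3.3. Of 45281 gene probes, 20573 were kept because their detection p-value fell below 0.05 on 3 or more arrays. All 9 arrays then entered 1 fit by lmFit and eBayes, with a mean for each of the 3 groups (6 residual and 5.19 prior degrees of freedom). The fit was also run on simulated arrays with independent noise and no shared animals, which says nothing of the pairing described next. Between WT1-high and WT1-intermediate arrays, deviations from the group means correlated at 0.35 and 0.34 for shared numbers 1 and 8, at 0.47 for 29 with 30, and at -0.39 to 0.03 for other pairs, and 3 animals gave these 6 arrays per the study. The column holding replicate 30 carried another name and was assigned as the only array left. The 10 genes, the lists and the rule for named genes (per list and comparison, the 2 called genes with the largest rise and the 2 with the largest fall) were chosen with earlier results of these arrays known. Lists held 215 genes, of which 202 were matched by symbol, 5 by synonym, 5 by Entrez identifier and 3 not at all. Alternatives covered background correction, scaling, offset, filter, arrays in the fit, array weights, replicate blocks, probe choice and each array left out.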

Additional observations from a re-analysis of the deposited data

How the results depend on the processing

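Against WT1-negative cells, 7 to 10 of the 10 genes were called under every alternative and 9 with any 1 array left out. The 7 arose where probes had to be detected on all 9 arrays, which leaves fewer genes to test, and the 10 where the kept probes of a gene were averaged, which added Mcm6 (-0.95 for WT1-high, -1.11 for WT1-intermediate). The Mcm6 differences also changed sign for WT1-high on leaving out WT1-high replicate 8 (-0.054) or WT1-negative replicate 11 (-0.066, in a range of -0.066 to 0.27 with an array left out), and for WT1-intermediate under median scaling (-0.58). The 8 lower genes were called, with the same sign, under each alternative in which they were tested, at -3.32 (Mcm5) to -0.74 (Mcm7) for WT1-high and -3.14 (Mcm5) to -0.67 (Mcm7) for WT1-intermediate. Differences were smaller with an offset of 50 and without background correction, which compress low levels. Pcna was called throughout, with a difference of 0.81 to 2.01 for the WT1-high and of 1.00 to 2.33 for the WT1-intermediate group.

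In the comparison of both WT1-positive groups the count of 1 was not stable. It was 0 with estimated array weights, no background correction, no filter, an offset of 50 and only the 2 groups compared in the fit, 2 with cyclic loess (Mcm3 and Mcm5 lower), and 0 to 1 with an array left out. A fixed replicate block gave 0, but it rests only on the pairs that share a number, which 29 and 30 do not. A random replicate block gave 2 (Mcm5 lower, Tyms higher), while a block of 3 pairs with 29 beside 30, added after seeing the data, kept Mcm5. The cause of the other changes was not tested. Median scaling kept a count of 1, but the gene was Tyms, higher by 1.15 (adjusted p = 0.0267, range over the alternatives 0.0267 to 0.231), and it turned Mcm2 (0.34), Mcm4 (0.60), Mcm6 (0.60), Mcm7 (0.24) and Pcna (0.36). Mcm6 also turned with averaged probes (0.16) and without WT1-high replicate 1 (0.033, range -0.22 to 0.033 with an array left out), and Rrm2 with cyclic loess (-0.29) and without WT1-high replicate 1 (-0.0057, range -0.0057 to 0.15).

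Median scaling moved the median of all genes from 0.04 to 0.48 between WT1-high and WT1-intermediate and from -0.10 to -0.43 between WT1-intermediate and WT1-negative cells. Of all calls, the share that was higher moved from 25.1% of 562 to 95.5% of 1999 and from 44.7% to 24.2% in these comparisons. Probes near the detection limit, as those of Mcm3 and Rrm2 in WT1-positive cells, give differences that understate the change.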
